A study of Homo sapiens with 16 samples.

Results

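ZBP1 and the genes of the RIPK necroptosis complex were examined in HMC3 cells, an immortalised human line established from embryonic microglia, labelled wild type or METTL3 KO. The set holds 9 genes of the 60669 in each deposited table, chosen by symbol: ZBP1, TICAM1, TRADD, FADD, RIPK1, RIPK3, CASP8, CFLAR and MLKL. All 9 were found in both tables. The METTL3 protein is the active enzyme that places N6-methyladenosine (m6A) on RNA, and the title of the series ties loss of m6A to cell death through ZBP1. Of the 16 libraries in the labels, 5 per genotype were made from polyadenylated RNA with Smart-seq2 and 3 per genotype with a directional kit once ribosomal RNA had been removed, each from 100 ng of RNA. The labels name no treatment for either genotype, and give neither how the knockout was made nor whether it is a single clone. Values of single libraries follow the order of their numbers throughout. The labels do not state whether replicates were separate cultures, so p-values measure the spread between these samples, which may be technical.

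ZBP1 binds left-handed Z-form RNA and DNA and, through a motif shared with RIPK1, RIPK3 and TICAM1, draws those proteins into a common scaffold. There RIPK3 phosphorylates MLKL, which permeabilises the plasma membrane in the form of cell death called necroptosis. FADD and caspase-8 can join the same scaffold and lead to apoptosis instead, and caspase-8 paired with the CFLAR protein cleaves RIPK1 and RIPK3 and so holds necroptosis back. In microglia, RIPK1 is known as a kinase of inflammatory signalling as well as of cell death.

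ZBP1 and RIPK3, the pair that defines ZBP1-driven necroptosis, had 0 TPM in each of the 6 rRNA-depleted libraries and stood at or near 0 in the authors' deposited table for the poly(A) libraries. TPM is the abundance of a gene per length, on a scale with the same sum for each library. The other 7 genes were detected. In the rRNA-depleted libraries TRADD fell by 2.50 on the log2 scale under the knockout label (SE 0.56, limma adjusted p 0.0230), and it was the 1 gene of the 7 tested that passed an adjusted p of 0.05 there. CFLAR was the 1 gene of 7 past that threshold in the authors' deposited table, where its log2 fold change was -0.60 (SE 0.19, adjusted p 0.0101). No gene of the set passed in both library types. By comparison, 9 of 14 genes listed with interferon signalling, through which ZBP1 itself is induced, passed and were higher in both. That list was chosen with earlier results of these data known. The direction of the deposited fold changes was itself taken from agreement between the library types. A shared direction is therefore not an independent result.

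These counts are read against a background of many changed genes. In the rRNA-depleted libraries 35.3% of the 14789 genes tested passed a limma adjusted p of 0.05, with 22.9% higher and 12.4% lower in the knockout-labelled libraries, and the values of the samples did not overlap for 62.7%. In the authors' deposited table the share was 19.9% of 14009 genes, 9.55% higher and 10.3% lower. Of the 12498 genes with an adjusted p in both, 10.6% passed in both and 7.15% did so in the same direction. The 1 gene of 7 called lower in each type is near these background shares of lower genes. The rRNA-depleted libraries are shallow, between 266157 and 1267171 recovered reads, and the 2 deepest carry the knockout label. Between knockout-labelled libraries 1 and 2 no difference past sampling noise was found at 0.05 (chi-square per degree of freedom 1.02, p = 0.0566 over 10053 genes), beside 1.17 to 1.54 for the other pairs of a label. They were averaged and counted as 1 sample, which leaves 3 samples against 2, though p lies close to that threshold. METTL3 mRNA does not check the label: its log2 change was 0.48 (SE 0.19, limma adjusted p 0.106), and 0.09 (SE 0.11, adjusted p 0.654) in the authors' deposited table. Of 12 microglia and macrophage markers, 9 were listed at 0 in every rRNA-depleted library, among them AIF1, CX3CR1, P2RY12, TMEM119 and SPI1. Their summed level was 0 to 6.47 TPM in the wild type and 0.532 to 5.24 TPM in the knockout-labelled libraries. The sum over 8 mesenchymal markers was 11187 to 13630 TPM and 3348 to 3470 TPM, a fall carried mostly by COL1A1 (means 10669 and 819 TPM). Of the 5 mesenchymal markers tested in the rRNA-depleted libraries 3 fell, while FN1 and THY1 rose by 1.39 and 1.05 on the log2 scale (limma adjusted p 0.00125 and 0.00256). In the authors' deposited table COL1A1 was also lower (-0.79, adjusted p 2.65e-15) and THY1 also higher (0.58, adjusted p 4.02e-21). The sign differed there for FN1 (-0.34, adjusted p 0.0121) and for COL1A2 (0.30, adjusted p 0.0029, beside -2.18 in the rRNA-depleted libraries). PDGFRB had -0.05 there (adjusted p 0.886). The part of cell state in the results below was not tested, and in bulk RNA fewer cells of a kind and less RNA per cell cannot be told apart.

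**Figure D1:**
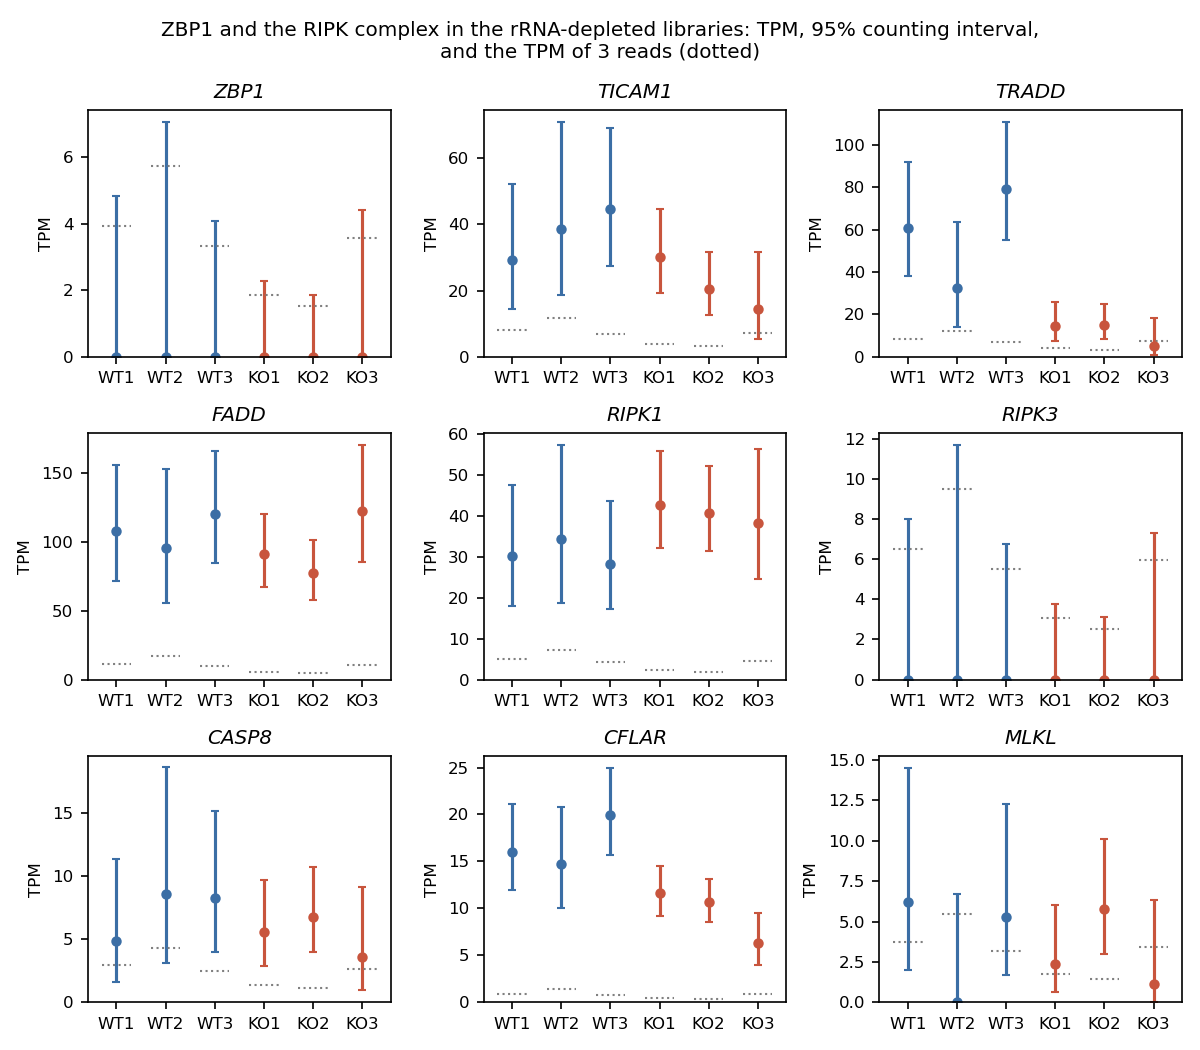
TPM of the 9 genes in each rRNA-depleted library (wild type WT1 to WT3 in blue, knockout-labelled KO1 to KO3 in red), with the 95% Poisson counting interval of the recovered reads as bars and the TPM worth 3 reads as dotted lines. TRADD and CFLAR are lower in all 3 knockout-labelled libraries than in any wild-type library, RIPK1 is higher in all 3, and ZBP1 and RIPK3 are at 0 throughout.

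The sensor came first. ZBP1 (ENSG00000124256; chromosome 20, 57603846 to 57620576, minus strand, GRCh38) had no read in any rRNA-depleted library. Up to 3 reads are allowed by a count of 0, and for ZBP1 these are worth 3.93, 5.74 and 3.32 TPM across the 3 wild-type libraries and 1.86, 1.52 and 3.58 TPM across the 3 knockout-labelled ones. The limit is lowest in the 2 deepest libraries, and it covers counting error only, because the labels mention no molecular identifiers. ZBP1 had a mean normalized count of 0.0374 in the authors' deposited table, a log2 fold change of -0.12 with an SE of 3.76, and no adjusted p. With an SE of that size no direction can be read for ZBP1. RIPK3 (ENSG00000129465; chromosome 14, 24336021 to 24340045, minus strand), the kinase that activates MLKL, was also without a read in all 6 libraries. Its limits of 3 reads were 6.53, 9.53 and 5.52 TPM in the wild type and 3.09, 2.52 and 5.95 TPM under the knockout label. RIPK3 in the authors' deposited table had a mean normalized count of 0 and no fold change. Neither gene's RNA was detected in the rRNA-depleted libraries of either genotype at this depth, which does not show that it was absent. For ZBP1 the poly(A) mean, though near 0, is above it.

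The 7 genes detected spanned a wide range of levels on the TPM scale, which divides by gene length. In the wild type FADD was highest at 108 ± 12.4 TPM (SD, n = 3), and its 3 libraries lay above every value of the others. TRADD followed at 57.4 ± 23.7 TPM, TICAM1 at 37.5 ± 7.88 TPM and RIPK1 at 30.9 ± 3.04 TPM (SD, n = 3 for each), and neighbours among these 3 overlapped. CFLAR stood apart below them at 16.9 ± 2.72 TPM, then CASP8 at 7.24 ± 2.04 TPM and MLKL at 3.83 ± 3.35 TPM (SD, n = 3 for each), the last 2 overlapping. In the knockout-labelled samples FADD was again first at 103 ± 27.3 TPM, but RIPK1 was second at 39.97 ± 2.56 TPM (SD, n = 2). TRADD stood at 9.84 ± 6.80 TPM (SD, n = 2), a level that overlapped those of TICAM1 above it and CFLAR below it. TRADD thus ranked 2 of the 9 genes in the wild type and 4 under the knockout label. The TPM of CFLAR is low for its reads because the 22529 bases of exon assigned to it in the annotation, many in a long 3′ UTR, enter the division.

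TICAM1 (ENSG00000127666; chromosome 19, 4815932 to 4831704, minus strand) encodes TRIF, the adaptor that carries signals from TLR3 to RIPK1 and RIPK3. It was at 29.1, 38.7 and 44.7 TPM across the 3 wild-type libraries against 30.1, 20.5 and 14.5 TPM across the 3 knockout-labelled ones, from 6 to 24 reads a library. The single libraries overlap, since knockout-labelled library 1 lies above wild-type library 1, while the averaged samples do not. The log2 change was -0.91 (SE 0.32, 95% interval -1.73 to -0.09, limma adjusted p 0.0827), which missed the threshold. The poly(A) value of TICAM1 in the authors' deposited table was a log2 fold change of 0.15 (SE 0.35, adjusted p 0.825) at a mean normalized count of 11.2.

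TRADD (ENSG00000102871; chromosome 16, 67154180 to 67160298, minus strand) encodes the adaptor that binds TNF receptor 1 and brings RIPK1 and FADD to it. It was at 60.7, 32.3 and 79.3 TPM across the 3 wild-type libraries, from 22, 8 and 34 reads, against 14.4, 14.9 and 5.03 TPM across the 3 knockout-labelled ones, from 11, 14 and 2 reads. Every knockout-labelled library was lower than every wild-type library. The nearest to them was wild-type library 2, the shallowest of all, whose counting interval overlaps those of all 3 knockout-labelled libraries. The log2 change of TRADD was -2.50 (SE 0.56, 95% interval -3.91 to -1.08, limma adjusted p 0.0230), or -2.91 relative to the median of all genes. It passed the threshold in 12 of 16 alternative fits. The call was lost without wild-type library 1 (limma adjusted p 0.0641), wild-type library 3 (0.0599) or knockout-labelled library 3 (0.173, at a log2 change of -1.81), and after removal of the trend with GC content (0.0855, at -1.66).

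The authors' deposited table did not show that fall. TRADD had a log2 fold change of 0.53 there (SE 0.44, adjusted p 0.450) at a mean normalized count of 9.31, an interval of -0.33 to 1.39 from the deposited SE that lies wholly above the -1.08 that bounds the rRNA-depleted interval. The library types were prepared and processed apart, and no test of the difference between them was made. FBXL8, a gene on the opposite strand whose exons overlap those of TRADD, was at 3.31 to 15.3 TPM in the wild type and 4.38 to 6.43 TPM under the knockout label, and its log2 change was -0.10 (limma adjusted p 0.919). Whether the deposited values were counted by strand is not given in the sources used here.

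METTL3 methylates adenosines within a short consensus of which GGACT is a common form, so these letters were counted on the sense strand of 1 coding transcript per gene (GENCODE 29). TRADD held 5 in 1877 bases, or 2.66 per kilobase, the highest density among the 9 genes and above that of 96.3% of 19684 coding genes, whose median was 0.939 per kilobase. The 5 TRADD stretches are shown because TRADD was the gene called, with GGACT in capitals and the position of its first base in the transcript, 3 of them in the coding sequence, which runs from base 470 to base 1405.

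TRADD 5′ UTR, base 280: ggggcaggGGACTggcagcag
TRADD coding, base 1216: ccggcgctGGACTcgctggcc
TRADD coding, base 1247: agcgcgagGGACTgtacgagc
TRADD coding, base 1366: ctggcagaGGACTtgctgggc
TRADD 3′ UTR, base 1733: ggtgtcctGGACTtcatcctg

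CASP8 came next with 6 in 2930 bases (2.05 per kilobase, above 90.3% of coding genes), then RIPK1 with 6 in 4160 bases (1.44 per kilobase). CFLAR held 14 in 14672 bases, which is 0.954 per kilobase and near the median. ZBP1, RIPK3 and TICAM1 held 2 each, FADD 1, and the MLKL transcript held none in 2523 bases. A match is a description of the letters and not of a methylated site, and 87.5% of coding genes hold at least 1.

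FADD (ENSG00000168040; chromosome 11, 70203163 to 70207390, plus strand) encodes the adaptor that joins caspase-8 to death receptors and to the RIPK scaffold. It was at 108, 95.6 and 120 TPM across the 3 wild-type libraries against 91.0, 77.4 and 123 TPM across the 3 knockout-labelled ones. The groups overlap, with the lowest and the highest value both under the knockout label. The log2 change of FADD was -0.08 (SE 0.20, 95% interval -0.59 to 0.44, limma adjusted p 0.794), and the sign turned to 0.47 when the GC trend was removed. The authors' deposited table put FADD at -0.73 (SE 0.48, adjusted p 0.312) at a mean normalized count of 8.49. Among 9663 genes with a mean of at least 10 TPM, those whose log2(TPM + 1) followed FADD most closely over the 6 libraries were PEX5 (Pearson's r 0.977), PIEZO1 (0.970) and MON1B (0.965). These libraries share depth and preparation differences, and the values are given as a description.

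RIPK1 (ENSG00000137275; chromosome 6, 3063991 to 3115187, plus strand) encodes the kinase at the branch between inflammatory signalling, apoptosis and necroptosis. It was at 30.1, 34.2 and 28.3 TPM across the 3 wild-type libraries, from 14 to 20 reads, against 42.8, 40.8 and 38.2 TPM across the 3 knockout-labelled ones, from 25 to 63 reads. Every knockout-labelled library was above every wild-type library, but the counting intervals overlap. The log2 change was 0.36 (SE 0.18, 95% interval -0.09 to 0.81, limma adjusted p 0.171), which is -0.05 relative to the median of all genes and 0.02 (limma adjusted p 0.950) with median ratio scaling. The authors' deposited table gave RIPK1 a log2 fold change of 0.29 (SE 0.13, adjusted p 0.105) at a mean normalized count of 106, the highest of the set. RIPK1 was the 1 gene of the set with a positive value in both library types, and it passed the threshold in neither.

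In the mean TPM of the rRNA-depleted libraries RIPK1 and its adaptor TRADD exchanged places in the order of levels. The authors' deposited table gives no level per genotype. Its log2 fold changes were 0.29 for RIPK1 and 0.53 for TRADD, neither past the threshold. The ratio of RIPK1 to TRADD in TPM was 0.496, 1.06 and 0.357 across the 3 wild-type libraries and 2.98, 2.73 and 7.58 across the 3 knockout-labelled ones, without overlap. The ratio of RIPK1 to FADD was 0.280, 0.358 and 0.235 against 0.470, 0.527 and 0.311, so knockout-labelled library 3 falls among the wild-type values. These ratios were formed after the values were seen and carry no test.

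CASP8 (ENSG00000064012; chromosome 2, 201233443 to 201287711, plus strand) encodes caspase-8, which starts apoptosis and cleaves RIPK1 and RIPK3. It was at 4.89, 8.57 and 8.27 TPM across the 3 wild-type libraries against 5.55, 6.81 and 3.57 TPM across the 3 knockout-labelled ones, from 4 to 18 reads a library. The groups overlap. Its log2 change was -0.49 (SE 0.47, 95% interval -1.68 to 0.69, limma adjusted p 0.453), and the authors' deposited table put CASP8 at 0.19 (SE 0.29, adjusted p 0.723) at a mean normalized count of 19.2.

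CFLAR (ENSG00000003402; chromosome 2, 201116104 to 201176687, plus strand) encodes cFLIP, a caspase-like protein without protease activity that pairs with caspase-8. It was at 16.03, 14.7 and 19.9 TPM across the 3 wild-type libraries, from 51, 32 and 75 reads, against 11.6, 10.7 and 6.31 TPM across the 3 knockout-labelled ones, from 78, 88 and 22 reads. All 3 knockout-labelled libraries were below all 3 wild-type libraries, but some of the counting intervals overlap. The log2 change of CFLAR was -0.91 (SE 0.36, 95% interval -1.83 to 0.00, limma adjusted p 0.108), or -1.33 relative to the median of all genes. It missed the threshold there and in 13 of 16 alternatives, and passed with median ratio scaling (-1.24, limma adjusted p 0.0449), with voom on recovered reads (-1.08, limma adjusted p 3.81e-05) and with the GC trend removed (-1.22, limma adjusted p 0.0444). For the poly(A) libraries the log2 fold change of CFLAR in the authors' deposited table was -0.60 (SE 0.19, adjusted p 0.0101) at a mean normalized count of 46.3. CFLAR was negative in both library types and in all 16 alternatives, and past the threshold in 1 of the 2 types.

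The opposite strand at this locus moved as well. CFLAR-AS1, an antisense transcript whose exons overlap those of CFLAR, was at 13.1, 11.9 and 13.8 TPM across the 3 wild-type libraries against 0.773, 3.79 and 2.98 TPM across the 3 knockout-labelled ones. Its log2 change was -1.95 with a limma adjusted p of 0.0141. Without a stated use of strand in the counting, reads of the 2 genes cannot be told apart where they overlap. The authors' deposited table gave CFLAR-AS1 a log2 fold change of -0.19 (adjusted p 0.875) at a mean normalized count of 3.34. The ratio of CFLAR to CASP8 in TPM was 3.28, 1.71 and 2.41 in the wild type and 2.09, 1.57 and 1.77 under the knockout label, which overlap.

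The 2 coding GGACT stretches of CFLAR are shown because CFLAR was the gene called in the poly(A) comparison, with GGACT in capitals and positions in its coding transcript.

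CFLAR coding, base 674: tctgtcggGGACTtggctgaa
CFLAR coding, base 788: cttgtttcGGACTatagagtg

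MLKL (ENSG00000168404; chromosome 16, 74671855 to 74700960, minus strand) encodes the protein that breaches the membrane at the end of the pathway. It was at 6.22, 0 and 5.26 TPM across the 3 wild-type libraries, from 5, 0 and 5 reads, against 2.36, 5.77 and 1.13 TPM across the 3 knockout-labelled ones, from 4, 12 and 1 reads. The groups overlap fully. With so few reads the log2 change of -0.12 had an SE of 1.03 and a 95% interval of -2.73 to 2.50 (limma adjusted p 0.942), and its sign turned in 8 of 16 alternatives. The authors' deposited table put MLKL at 0.26 (SE 0.38, adjusted p 0.706) at a mean normalized count of 9.64. No direction can be given for MLKL.

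**Figure D2:**
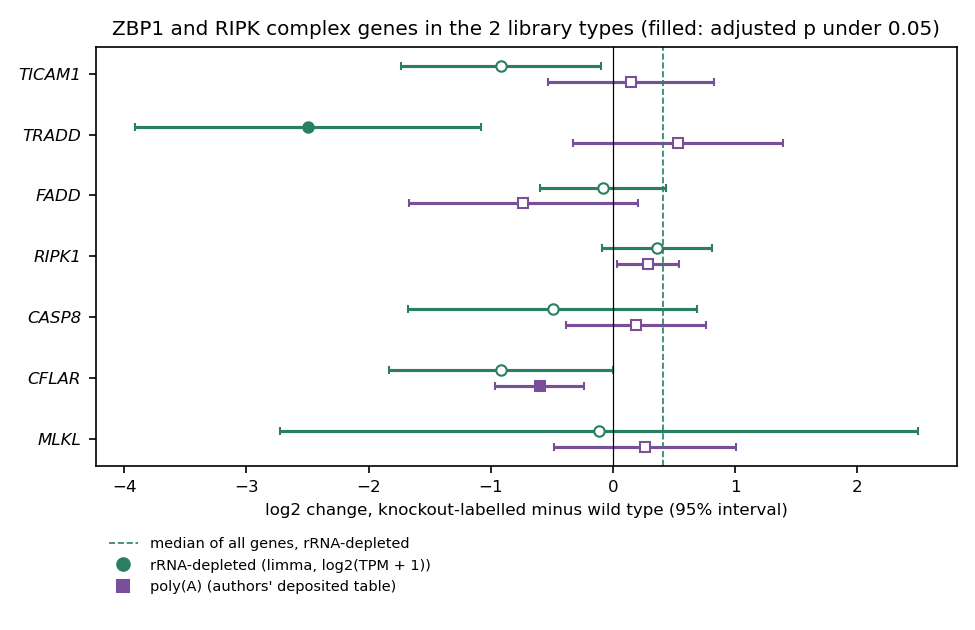
Log2 change of the 7 detected genes, knockout-labelled minus wild type, with 95% intervals: circles for the rRNA-depleted libraries (limma) and squares for the poly(A) libraries (authors' deposited table). TRADD is filled in the first and CFLAR in the second, where filled means an adjusted p under 0.05, and TRADD is the gene whose intervals do not meet.

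Set side by side, the 2 library types gave different pictures. In the rRNA-depleted libraries 6 of the 7 genes tested had a negative log2 change, all 7 lay below the median of all genes (0.41), and their own median was -0.49. Their median was 0.19 in the authors' deposited table, beside 0.02 for all genes. The signs differed for 4 of the 7 genes: TICAM1, TRADD, CASP8 and MLKL. At an unadjusted p under 0.05 there were 2 genes in the rRNA-depleted libraries, TICAM1 and TRADD, and 2 in the authors' deposited table, CFLAR and RIPK1. Values did not overlap between the averaged samples for 4 of 7 genes (TICAM1, TRADD, RIPK1 and CFLAR), beside the 62.7% of all genes given above.

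Changes in the rRNA-depleted libraries moved with base composition. Across 14669 genes, which are not independent, the Spearman correlation of log2 change with the GC content of the longest transcript was -0.37. TRADD had the highest GC content of the set at 65.0%, followed by TICAM1 at 63.0% and FADD at 58.6%, while CFLAR and CASP8 had 44.1% and 42.6%. With the trend removed in each library TICAM1 moved to -0.16 (limma adjusted p 0.763) and TRADD to -1.66, whereas CFLAR moved the other way, to -1.22. Removal of the trend also moved BIRC2 to 1.20, CDC37 to -0.97, GSDMD to -1.33 and VPS4B to -1.76, whose values without removal follow below, and all 4 stayed past the threshold. Which part of the change of TICAM1 and TRADD goes with GC content was not tested further.

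**Figure D3:**
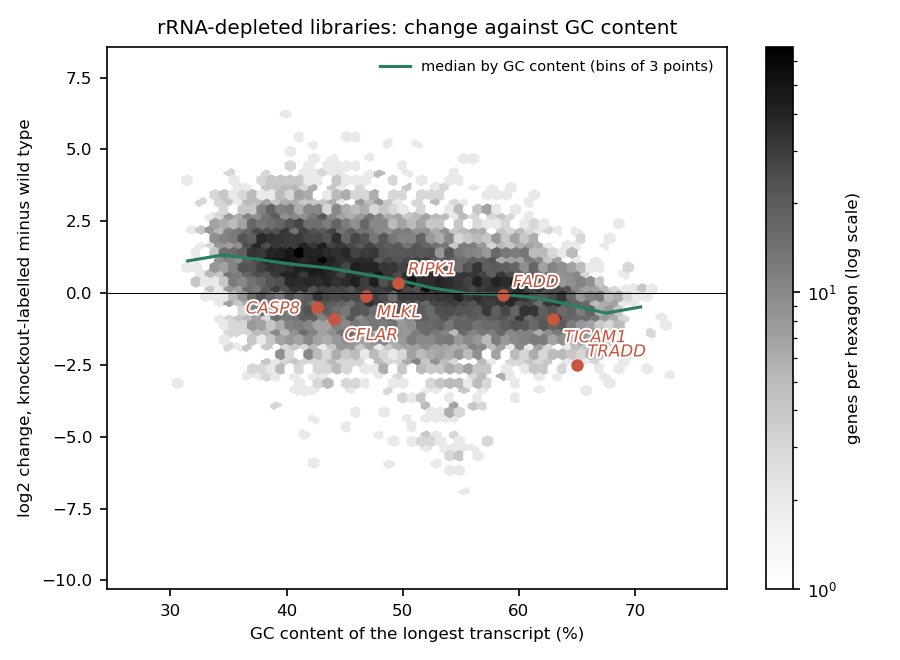
Log2 change in the rRNA-depleted libraries (vertical axis, knockout-labelled minus wild type) against GC content of the longest transcript in percent (horizontal axis), for all genes as hexagons shaded by the number of genes, the median by GC content as a line, and the 7 detected genes as red points. The line falls with GC content. CFLAR and CASP8 lie below it at low GC content, and TRADD lies below it at 65.0%.

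The genes around the complex were followed in 6 lists, whose counts stand beside the shares of all genes that passed. These were 22.9% higher and 12.4% lower by limma in the rRNA-depleted libraries. In the authors' deposited table they were 9.55% higher and 10.3% lower. Upstream, of 9 death receptors, their ligands and Toll-like receptors, 5 could be tested in the rRNA-depleted libraries and 0 passed by limma, with 1 at an unadjusted p under 0.05, while voom on recovered reads called 2. The list median there was 0.57, or 0.29 with genes at the limit of 3 reads set to their bound, beside 0.41 for all genes. TNF and FASLG, ligands of the receptors that engage TRADD and FADD, were listed at 0 in every rRNA-depleted library. TNFRSF1A, the receptor that TRADD binds, was at 40.7 to 67.2 TPM in the wild type and 72.6 to 87.9 TPM under the knockout label, and its log2 change was 0.57 (SE 0.24, limma adjusted p 0.123). The authors' deposited table gave TNFRSF1A -0.12 (adjusted p 0.606). TNFRSF10B, a receptor of the ligand TRAIL, had -0.23 (limma adjusted p 0.375). TLR4, which signals through TICAM1, rose in the authors' deposited table (log2 fold change 1.57, SE 0.32, adjusted p 3.24e-05), as did FAS with 1.28 (SE 0.34, adjusted p 0.00174). TLR3, the other receptor upstream of TICAM1, had 0.51 (adjusted p 0.382) in the authors' deposited table. In the rRNA-depleted libraries TLR4 had 3 reads in the wild type, all in library 1, and was at 7.01, 4.69 and 2.46 TPM across the 3 knockout-labelled ones. The ratio of its reads per depth was 9.24 (95% counting interval 3.002 to 46.1), and its limma adjusted p was 0.0663.

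Of 19 ubiquitin ligases, deubiquitinases and kinases that act on RIPK1, 18 were tested in the rRNA-depleted libraries: 4 rose and 2 fell, and the list median was 0.83, or 0.47 with bounds. Of all genes 35.3% passed there, 22.9% higher and 12.4% lower. Of the 19 genes in the authors' deposited table, 4 rose and 1 fell, with a median of 0.12. TRAF2, BIRC2 and TAB2 passed in both. TRAF2, which binds TRADD and recruits the ligases, fell by 0.57 in the rRNA-depleted libraries (SE 0.15, limma adjusted p 0.0371), with the sign turned to 0.10 when the GC trend was removed, and had -0.57 in the authors' deposited table (SE 0.15, adjusted p 0.00257). BIRC2, encoding cIAP1, which attaches ubiquitin to RIPK1, rose by 1.87 (SE 0.29, limma adjusted p 0.00807), from between 9.13 and 10.9 TPM in the wild type to between 31.3 and 56.9 TPM, and by 0.38 in the authors' deposited table (adjusted p 0.00246). TAB2, a ubiquitin-binding partner of the kinase TAK1, rose by 2.96 (SE 0.71, limma adjusted p 0.0284) and by 0.70 in the authors' deposited table (adjusted p 0.00375). TAB2 was at 1.28 to 9.75 TPM in the wild type, and its fewest reads in a library were 1. Others passed in 1 type. XIAP, an inhibitor of caspases, fell from between 83.7 and 102 TPM to between 27.2 and 31.9 TPM (-1.66, limma adjusted p 0.00243), while the authors' deposited table gave 0.12 (adjusted p 0.679). SPATA2, which links the deubiquitinase CYLD to its complex, rose by 2.88 (limma adjusted p 0.0238) beside -0.41 (adjusted p 0.276) in the authors' deposited table. SPATA2 was at 2.42 to 11.6 TPM in the wild type, and its fewest reads in a library were also 1. CHUK, encoding the kinase IKKα, rose in the authors' deposited table by 0.57 (adjusted p 8.79e-07) and had 0.75 in the rRNA-depleted libraries (limma adjusted p 0.0504). Without knockout-labelled library 3 the 6 calls in the rRNA-depleted libraries became 2, and without wild-type library 3 they became 3.

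All 9 regulators of RIPK3 and MLKL were tested in the rRNA-depleted libraries, where 4 rose and 4 fell around a median of 0.41, equal to that of all genes. Over all genes 35.3% passed in those libraries. Of these regulators 2 passed in the authors' deposited table, both higher, beside 19.9% of all genes. HSP90AA1, the chaperone of RIPK kinases and MLKL, rose in both, by 1.02 (SE 0.16, limma adjusted p 0.00823) and by 0.55 in the authors' deposited table (SE 0.06, adjusted p 5.73e-18). CDC37, the co-chaperone that works with it on kinases, went the other way in the rRNA-depleted libraries, from between 648 and 738 TPM to between 218 and 257 TPM (-1.58, limma adjusted p 0.00124), and had 0.12 in the authors' deposited table (adjusted p 0.504). AURKA, a mitotic kinase, rose by 0.41 (limma adjusted p 0.0324), which is the median of all genes, and by 0.24 in the authors' deposited table (adjusted p 0.000251). With median ratio scaling AURKA had 0.06 (limma adjusted p 0.687). PGAM5, a mitochondrial phosphatase reported downstream of RIPK3, fell by 1.81 (limma adjusted p 0.00281) and had -0.35 in the authors' deposited table (adjusted p 0.630). PPM1B, a phosphatase of RIPK3, had 1.005 (limma adjusted p 0.0812) and 0.21 in the authors' deposited table (adjusted p 0.195). Without knockout-labelled library 3 the 8 calls became 2, without wild-type library 3 they became 5, and with the GC trend removed they became 4.

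ESCRT-III proteins pinch off membrane damaged by MLKL. Of 13 such genes 12 were tested in the rRNA-depleted libraries, 4 rose and 2 fell, and the median was -0.36. There were 3 of 12 that passed in the authors' deposited table, all lower, with a median of -0.14. The shares of all genes that passed were 35.3% in the rRNA-depleted libraries and 19.9% in the authors' deposited table. VPS4B, an ATPase that takes ESCRT-III apart, fell in both: from between 26.4 and 33.3 TPM to between 10.2 and 14.8 TPM (-1.16, SE 0.22, limma adjusted p 0.0152), and by 0.75 on the log2 scale in the authors' deposited table (adjusted p 1.41e-05). CHMP6 and CHMP2A, subunits of the complex, passed in the authors' deposited table at -1.68 (adjusted p 2.46e-10) and -0.49 (adjusted p 0.00189). In the rRNA-depleted libraries CHMP6 had -1.17 (limma adjusted p 0.0511) and CHMP2A -0.42 (limma adjusted p 0.130), the same signs. PDCD6IP, encoding the ESCRT partner ALIX, rose by 2.24 (limma adjusted p 0.00944) and CHMP5 by 1.38 (limma adjusted p 0.0124), beside 0.13 (adjusted p 0.339) and 0.11 (adjusted p 0.437) in the authors' deposited table. CHMP4A had 4 reads over the 3 knockout-labelled libraries and 18 over the wild type, a ratio of reads per depth of 0.110 (95% counting interval 0.0271 to 0.334, limma adjusted p 0.0125). Without knockout-labelled library 3 the 6 calls became 0 by limma, with 5 at an unadjusted p under 0.05, and without wild-type library 1 they became 4. With the GC trend removed 3 calls were left, and CHMP5 had 0.82 (limma adjusted p 0.0588).

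Among 12 other caspases and inflammasome genes, 7 were tested in the rRNA-depleted libraries, with 1 higher and 1 lower. The shares of all genes there were 22.9% higher and 12.4% lower. GSDMD, a pore former of pyroptosis, fell from between 101 and 123 TPM to between 19.8 and 29.03 TPM (-2.16, SE 0.19, limma adjusted p 0.00223) and had -0.43 in the authors' deposited table (adjusted p 0.316). GSDME, another pore former, was the 1 gene past the threshold in the authors' deposited table, at -0.59 (SE 0.19, adjusted p 0.0157). CASP1, an inflammatory caspase, had 1.20 in the authors' deposited table (adjusted p 0.297). Without knockout-labelled library 3, or without wild-type library 1, or with the GC trend removed, 1 call was left, and without wild-type library 2 there were 3.

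**Figure D4:**
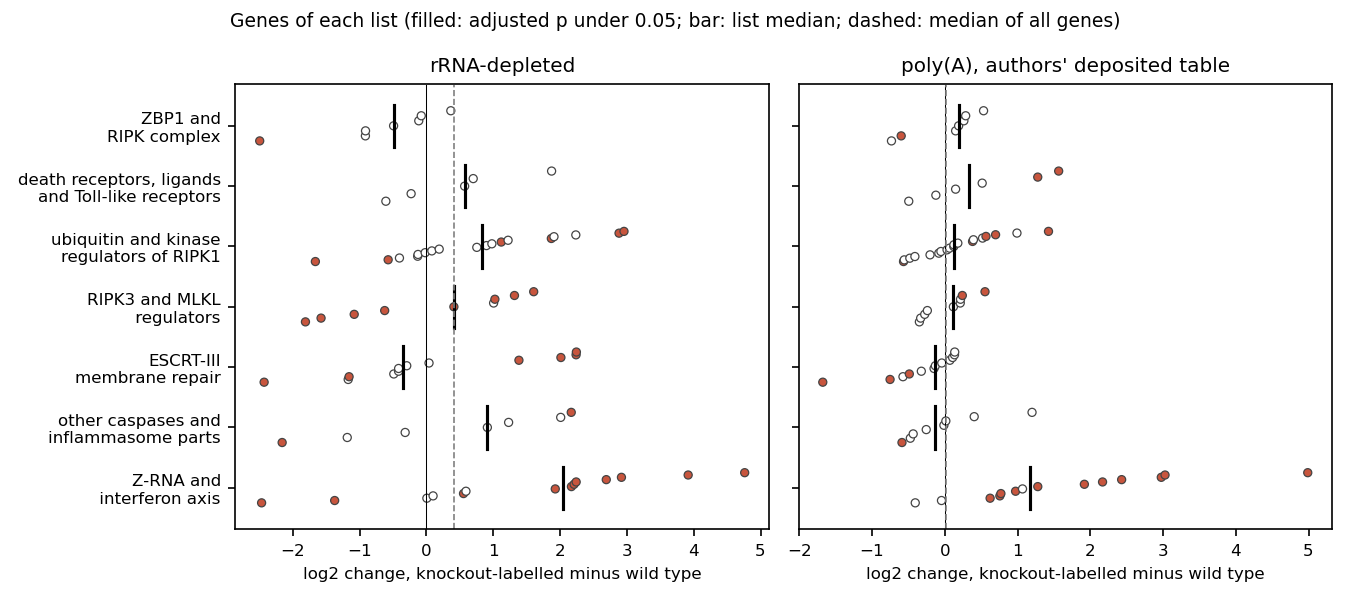
Log2 change of each gene in the set and in the 6 lists around it, knockout-labelled minus wild type, in the rRNA-depleted libraries (left) and in the authors' deposited table for the poly(A) libraries (right). Each point is a gene, filled where its adjusted p is under 0.05, with the list median as a bar and the median of all genes as a dashed line. The list of the Z-RNA and interferon axis lies to the right in both panels, with medians of 2.05 and 1.17.

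The list of the Z-RNA and interferon axis holds genes that act around ZBP1 or are induced by interferon as ZBP1 is. It was chosen with earlier results of these data known. Of its 14 genes 9 rose and 2 fell in the rRNA-depleted libraries, with a median of 2.05 (2.01 with bounds), and 11 passed in the authors' deposited table, all higher, with a median of 1.17. Of all genes 35.3% passed in the rRNA-depleted libraries and 19.9% in the authors' deposited table. Not past the threshold in the rRNA-depleted libraries were ISG15 (0.0058, limma adjusted p 0.986), IRF1 (0.10, limma adjusted p 0.767) and IRF9 (0.59, limma adjusted p 0.524). ISG15 and IRF1 passed in the authors' deposited table at 0.97 and 0.76, and IRF9 had 1.07 there (adjusted p 0.106). Genes past the threshold and higher in both included ADAR, STAT2, IFIT1, IFIT3, MX1, OAS1, BST2 and IFI44. ADAR, which edits double-stranded RNA and is known to keep Z-RNA from ZBP1, was at 48.3, 32.2 and 52.3 TPM across the 3 wild-type libraries against 199, 202 and 196 TPM across the 3 knockout-labelled ones. The log2 change of ADAR was 2.17 (SE 0.23, limma adjusted p 0.00323), and 0.77 in the authors' deposited table (adjusted p 1.13e-14). STAT2, a transcription factor of interferon signalling, rose by 0.55 (limma adjusted p 0.0441), which became 0.20 (limma adjusted p 0.324) with median ratio scaling, and by 0.62 in the authors' deposited table. IFIT1 rose by 1.93, IFIT3 by 2.24 and MX1 by 2.69, with limma adjusted p-values of 0.0196, 0.00491 and 0.0381, all 3 encoding antiviral proteins. MX1 passed in 9 of 16 alternatives and had 2.38 (limma adjusted p 0.0572) with median ratio scaling. Its wild-type libraries were at 7.40, 1.20 and 8.34 TPM, and its fewest reads in a library were 1. IFIT1, IFIT3 and MX1 stood in the authors' deposited table at 2.43, 1.92 and 1.28. OAS1, a sensor of double-stranded RNA, had 1 read over the wild-type libraries and 33.8 to 36.6 TPM under the knockout label, a ratio of reads per depth of 69.8 (95% counting interval 12.3 to 2775, limma adjusted p 0.00418). IFI44 had 3 reads over the wild type and 86 under the knockout label, a ratio of 14.2 (95% counting interval 4.69 to 70.1, limma adjusted p 0.0269).

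The receptor subunits moved the other way in the rRNA-depleted libraries, where IFNAR1 fell by 1.37 (limma adjusted p 0.0128) and IFNAR2 by 2.47 (limma adjusted p 0.00439). Their values in the authors' deposited table were -0.05 (adjusted p 0.846) and -0.41 (adjusted p 0.285). Both receptor genes were named for being the 2 that fell, after their values were seen. Without knockout-labelled library 3, which leaves 1 sample under that label, the 11 calls in the rRNA-depleted libraries became 2, and without any other single library they stayed between 9 and 11. ZBP1, itself an interferon-induced gene, stayed without a read in the same libraries.

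BST2, a membrane protein that tethers virus particles, had the smallest adjusted p of this list in both types. It was at 38.0, 37.0 and 42.8 TPM across the 3 wild-type libraries against 291, 277 and 323 TPM across the 3 knockout-labelled ones (log2 change 2.92, SE 0.13, limma adjusted p 0.000872), and its log2 fold change was 4.99 in the authors' deposited table. Promoters were searched for 2 copies of GAAA separated by 2 bases of any kind, the core of the element bound by interferon-activated factors, on both strands from 250 bases before to 50 after each start, in RefSeq windows on GRCh38.p14. The motif was in 1255 of 35116 windows (3.57%) and in 4.38% of 27305 genes. Of the interferon list 6 of 12 genes with a window held it. Of the necroptosis complex 6 genes had a window (not ZBP1, TRADD or RIPK3), and 2 held the motif, RIPK1 and CASP8. Their windows are shown with that of BST2, 5′ to 3′ on the strand of the gene with the motif in capitals, to set the 2 genes of the complex that hold it, neither of which passed the threshold, beside a gene that rose.

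RIPK1 promoter, chr6:3068128-3068427, plus strand: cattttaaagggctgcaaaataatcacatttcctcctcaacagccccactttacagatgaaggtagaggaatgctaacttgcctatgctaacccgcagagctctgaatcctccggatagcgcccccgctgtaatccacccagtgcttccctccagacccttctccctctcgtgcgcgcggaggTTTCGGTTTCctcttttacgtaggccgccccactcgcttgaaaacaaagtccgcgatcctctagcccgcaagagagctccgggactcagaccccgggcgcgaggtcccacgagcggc
CASP8 promoter, chr2:201233213-201233512, plus strand: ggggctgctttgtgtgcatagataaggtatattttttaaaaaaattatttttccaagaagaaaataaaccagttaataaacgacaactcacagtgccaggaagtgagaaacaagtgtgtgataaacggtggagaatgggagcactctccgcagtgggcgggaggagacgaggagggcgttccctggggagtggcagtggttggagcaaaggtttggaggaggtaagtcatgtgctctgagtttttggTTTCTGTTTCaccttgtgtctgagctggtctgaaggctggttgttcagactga
BST2 promoter, chr19:17405581-17405880, minus strand: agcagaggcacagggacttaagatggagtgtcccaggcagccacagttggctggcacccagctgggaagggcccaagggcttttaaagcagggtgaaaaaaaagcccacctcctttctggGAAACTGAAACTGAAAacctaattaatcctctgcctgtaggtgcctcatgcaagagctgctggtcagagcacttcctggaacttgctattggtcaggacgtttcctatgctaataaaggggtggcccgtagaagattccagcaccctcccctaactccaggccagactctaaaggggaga

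In RIPK1 the match is TTTCGGTTTC, the motif read on the opposite strand, starting 67 bases before the start site of the window shown. In CASP8 it is TTTCTGTTTC, again on the opposite strand, and it spans the start site. BST2 holds GAAACTGAAA at 2 overlapping positions, the first starting 130 bases before the start site. RIPK1 also has 1 window, 3068244 to 3068543, that overlaps the one shown and holds the same site. Its other window, 3063717 to 3064016, contains the gene start given above and holds no match. The other 2 windows of CASP8 hold none. A match describes letters in a window and not binding.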

How the data were processed

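The authors deposited TPM for the 6 rRNA-depleted libraries and, for the poly(A) libraries, a table of 1 comparison with no value per library. Per the file headers that table gives each gene's mean normalized count (a signal with no value per library), log2 fold change and its SE. A Wald statistic, which is a score, and p-values before and after adjustment complete it, per the file headers. The submitters' processing notes name Trimmomatic, STAR, DESeq2 and hg38, without versions. A positive deposited log2 fold change was taken as higher in the knockout, because the numerator is not given in the sources used here and 91.5% of 177 genes with large changes past both thresholds then had the same sign in both library types. If it were the wild type, each direction from that table would be opposite.

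Reads behind each TPM were recovered with gene lengths from GENCODE 29 on GRCh38 (93.8% of gene identifiers matched). Of the values above 0, 90.9% were whole to within 0.02 reads, as were all values of the 9 genes. Limits are 3 reads. limma 3.58.1 in R 4.3.3 (lmFit, eBayes with trend) was run on log2(TPM + 1) for genes that reached 1 TPM in 3 or more libraries, with Benjamini-Hochberg adjustment at 0.05. This scale understates the change of low genes. The step was first tested on simulated data. Tables and figures used Python 3.11.15, pandas 2.3.3, numpy 2.4.6, scipy 1.17.1 and matplotlib 3.10.9.

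The 9 genes, the lists and the averaging of knockout-labelled libraries 1 and 2 were chosen with earlier results of these data known. From each list the text names the genes past the threshold in both library types and up to 3 with the smallest adjusted p in each. A few genes that this rule selects are not reported here. TNF, FASLG, ISG15, IRF1, IRF9, IFNAR1, IFNAR2, FBXL8, CFLAR-AS1 and the ratios were added after their values were seen. Counts per poly(A) library were not used here, so no count model was run on them.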

Additional observations from a re-analysis of the deposited data

How the results depend on the processing

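ZBP1, RIPK3 and MLKL rest on 0 to 12 reads a library. The number of genes of the complex called in the rRNA-depleted libraries, 1, became 3 with median ratio scaling and 3 with voom on recovered reads (TICAM1, TRADD and CFLAR in both), 0 at an adjusted p of 0.01, and 0 to 2 when 1 library was left out: 0 by limma without wild-type library 1, wild-type library 3 or knockout-labelled library 3 (2, 1 and 0 at an unadjusted p under 0.05), and 2 (TICAM1 and TRADD) without knockout-labelled library 1. With the GC trend removed it was 1, CFLAR in place of TRADD. Leaving out knockout-labelled library 1 or 2 leaves its partner in place, and leaving out library 3 leaves 1 sample, assumed to vary like the others. Over all genes, 5220 calls became 2242 at an adjusted p of 0.01 and 1663 to 5185 when 1 library was left out, the lowest without knockout-labelled library 3. The share of calls that were higher was 64.8%, and 48.6% with median ratio scaling, which moved the median change of all genes from 0.41 to 0.11. In the authors' deposited table the 1 call, CFLAR, became 0 at an adjusted p of 0.01 and 0 when a change of 1 or more on the log2 scale was required.

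The log2 change of FADD turned from -0.08 to 0.47 with the GC trend removed and to 0.0032 without wild-type library 3, the highest of a leave-one-out range that began at -0.35. That of MLKL turned from -0.12 to 0.59 with a pseudocount of 0.1, 0.0249 with 0.5, 0.0341 with 6 libraries as separate samples, and 0.09 to 0.51 without wild-type library 1, wild-type library 3, knockout-labelled library 1 or knockout-labelled library 3. It was -1.03 without wild-type library 2, the lowest with 1 library left out. That library had 0 reads of MLKL, beside 5 in wild-type library 1 and 5 in wild-type library 3. Why it held none was not tested. Replicate numbers did not pair the libraries (correlations of same-numbered deviations -0.02 to 0.02). With the 6 libraries as separate samples, a fit with the replicate number as a block called 6037 genes and the same fit without it 6880. Each called 1 gene of the complex, TRADD, and in each the log2 change of MLKL was 0.0341.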
